A study of Mus musculus with 4 samples.

Results

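Immunoglobulin variable segments are the germline pieces from which the antigen-binding part of an antibody is built. Their transcripts were followed here in the lung tumours of mice with and without Nrf2, to see how evenly the segments were used within a library and how far their use was shared between libraries. A segment was taken when its symbol began with Ighv (heavy chain), Igkv (kappa light chain) or Iglv (lambda light chain) and its FPKM (fragments per kilobase of gene and per M reads of the library) was at least 1 in any of the 4 libraries. Of 35275 genes in the table, 67 met this rule, namely 17 heavy-chain, 48 kappa and 2 lambda segments. They are a subset of 214 variable segments in the table, of which 108 were heavy-chain, 103 kappa and 3 lambda. The levels themselves chose the members, so the levels are given as a description.

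All mice were of the Balb/c strain and had received vinyl carbamate, a carcinogen that induces lung tumours, at 16 mg/kg in 2 or 4 doses. Wild-type mice (Nrf2 +/+) gave 2 libraries and Nrf2 knockout mice (Nrf2 -/-) gave 2 libraries. Tumours were taken 40 to 44 weeks after the carcinogen was first given, and each library was made from RNA of 3 to 4 pooled tumours. The labels do not tell apart the libraries by doses, weeks or tumours, and give no age. The series design speaks of 2 mice per genotype, and p-values measure only the spread between these libraries. Nfe2l2, which encodes Nrf2, stood at 96.3 and 87.9 FPKM in wild type 1 and 2 and at 3.66 and 2.96 FPKM in knockout 1 and 2. Sftpc, the surfactant gene that marks alveolar type 2 cells, lay between 75159 and 90474 FPKM in the 4 libraries.

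A B cell makes its heavy chain by joining 1 variable, 1 diversity and 1 joining segment, and its light chain by joining 1 variable and 1 joining segment, so each cell usually transcribes 1 productive heavy-chain and 1 productive light-chain variable segment at a high level. Plasma cells, which secrete antibody, hold far more immunoglobulin RNA per cell than resting B cells. Segment levels in a tissue therefore sum over many clones and are weighted towards plasma cells. In bulk RNA, more cells that use a segment and more RNA per cell cannot be told apart. The table gives no joined sequences, so that neither clones nor the pairing of a heavy with a light chain can be read from it.

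The 3′ ends of 6 segments that led a locus in at least 1 library are shown first, with that of Igkv14-126, chosen after its values were seen, since this is where the germline segment ends and the joint begins. Ighv6-3 and Ighv5-6, which led the heavy-chain locus in wild type 2 and knockout 2, are not shown. Each line gives the last 60 bases of the annotated segment (GENCODE, GRCm38), read 5′ to 3′ on the coding strand. Capitals mark the run TATTNCTGT (searched on the coding strand only), which ends in the codon of the conserved cysteine that precedes the third hypervariable loop. The bases after the capitals are the germline start of that loop, and they differ from segment to segment.
Igkv16-104: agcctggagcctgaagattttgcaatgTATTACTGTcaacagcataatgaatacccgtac
Igkv8-27: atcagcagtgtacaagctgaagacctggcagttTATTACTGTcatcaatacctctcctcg
Igkv9-120: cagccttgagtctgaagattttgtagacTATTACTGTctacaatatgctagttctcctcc
Igkv14-126: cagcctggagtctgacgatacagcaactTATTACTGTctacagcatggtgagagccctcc
Ighv14-1: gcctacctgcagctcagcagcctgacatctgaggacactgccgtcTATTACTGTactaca
Ighv11-2: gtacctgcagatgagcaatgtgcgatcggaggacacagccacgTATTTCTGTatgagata
Iglv1: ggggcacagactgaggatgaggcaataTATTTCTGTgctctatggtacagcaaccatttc

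These ends lie at chr6:68426013-68426072 (plus strand) for Igkv16-104, chr6:70171809-70171868 (minus) for Igkv8-27, chr6:68050397-68050456 (plus) for Igkv9-120 and chr6:67896583-67896642 (plus) for Igkv14-126. Those of Ighv14-1 and Ighv11-2 lie at chr12:113931953-113932012 and chr12:114048241-114048300, and that of Iglv1 at chr16:19085017-19085076, all on the minus strand. The run was found in 41 of the 67 members (61.2%) and in 189 of 346 annotated variable segments, pseudogenes included (54.6%). After it the shown kappa and lambda segments keep 18 to 24 germline bases, and the shown heavy-chain segments 6 to 8.

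Near relatives share long stretches, and how the authors counted reads that fit several segments is not known from the labels. The reference genome is of the C57BL/6J strain while the mice were Balb/c, whose immunoglobulin alleles are known to differ from it. A symbol below therefore stands for reads assigned to that reference segment. The closest relative of a member within its locus was 75.0% to 98.9% identical, with a median of 95.2%. For 25 of the 67 members the longest run of identical bases shared with that relative was at least 100. The lowest of these values was that of Igkv16-104, at 75.0% identity to Igkv11-125, with which its longest identical run was 23 bases. Runs shared with other segments were not searched. The next lines set 3 segments against a close relative over 90 bases of the coding exon, with the differing bases in capitals.
Igkv9-120: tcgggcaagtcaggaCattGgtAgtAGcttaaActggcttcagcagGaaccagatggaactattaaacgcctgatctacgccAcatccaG
Igkv9-124: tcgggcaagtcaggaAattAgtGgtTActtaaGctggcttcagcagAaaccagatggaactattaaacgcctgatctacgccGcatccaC
Ighv14-1: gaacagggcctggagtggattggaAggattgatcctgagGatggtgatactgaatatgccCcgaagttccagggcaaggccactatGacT
Ighv14-4: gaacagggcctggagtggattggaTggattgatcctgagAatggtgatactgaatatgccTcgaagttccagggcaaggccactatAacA
Iglv1: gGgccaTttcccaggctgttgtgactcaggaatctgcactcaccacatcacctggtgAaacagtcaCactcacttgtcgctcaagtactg
Iglv2: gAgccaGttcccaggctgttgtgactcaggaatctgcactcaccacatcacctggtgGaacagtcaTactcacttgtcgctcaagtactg

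The windows are at chr6:68050238-68050327 (plus strand) and chr6:67942203-67942292 (minus) for Igkv9-120 and Igkv9-124, at chr12:113932034-113932123 and chr12:114176519-114176608 for Ighv14-1 and Ighv14-4, and at chr16:19085232-19085321 and chr16:19260616-19260705 for Iglv1 and Iglv2 (minus strand for these 4). In these windows Igkv9-120 and Igkv9-124 differ at 9 of 90 bases, Ighv14-1 and Ighv14-4 at 5 and Iglv1 and Iglv2 at 4. They were taken where each pair differs most, and over the whole alignment the pairs are 95.2%, 97.4% and 97.0% identical.

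Few reads stood behind these segments. The values imply totals of 21.66 M and 21.22 M reads (M, 10 to the sixth power) in wild type 1 and 2, and of 17.98 M and 16.89 M in knockout 1 and 2. The 67 members together held 939 and 509 reads in wild type 1 and 2 and 996 and 1758 reads in knockout 1 and 2. For a segment of 350 bases, 1 FPKM was worth 7.58 and 7.43 reads in wild type against 6.29 and 5.91 in the knockout libraries. Just inside the rule were Ighv4-1, Igkv11-125 and Ighv2-5, each with a highest value of 6 reads (1.01, 1.01 and 1.02 FPKM, in knockout 2). Just outside were Ighv1-4 at 0.951 FPKM (6 reads in knockout 1), and Igkv3-4 and Igkv1-133 at 0.900 and 0.893 FPKM (7 reads each in wild type 1). All 67 members were annotated as functional segments. Of the 147 segments below the rule, 93 were at 0 in all 4 libraries, 65 of them heavy-chain and 28 kappa.

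Heavy-chain use was very skewed in wild type 1 and flatter in the other libraries. Shares here and below are of the FPKM or reads of the members of a locus, unless stated otherwise. Ighv14-1 took 80.2% of the heavy-chain FPKM in wild type 1, or 105 of 131 reads (80.2%, 95% Clopper-Pearson interval 72.3% to 86.6%; such intervals cover counting error only). In wild type 2 the leader was Ighv6-3 with 19.4%, which rested on 8 of 40 reads (interval 9.05% to 35.6%). Ighv11-2 led in knockout 1 with 25.7% (32 of 122 reads, interval 18.7% to 34.97%) and Ighv5-6 in knockout 2 with 13.3% (25 of 186 reads, interval 8.89% to 19.2%). Each of the 4 libraries thus had a different leading heavy-chain segment. An effective number of segments, the exponential of the Shannon entropy of the shares, gives the number of equally used segments that would be as diverse. It was 2.33 and 9.64 in wild type 1 and 2 and 11.7 and 13.8 in knockout 1 and 2 (mean 5.99 ± 5.17 against 12.7 ± 1.497, SD, n = 2 each). Both knockout values lay above both wild-type values, but the exact two-sided permutation test gives 0.333, the smallest p that 2 against 2 libraries allow. Of the 17 members, 2 and 1 reached 1 FPKM in wild type 1 and 2, against 8 and 14 in knockout 1 and 2. The rule itself thus favours a higher effective number in the knockout libraries, so this order is only a description.

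The measure also depends on depth, since a segment with few reads may be missed in a shallow library. Over all 108 heavy-chain segments the libraries held 160, 72, 160 and 219 reads in wild type 1, wild type 2, knockout 1 and knockout 2. At an equal 72 reads per library, a library would show 15.7 and 27.0 heavy-chain segments in wild type 1 and 2 and 24.2 and 23.2 in knockout 1 and 2 (exact permutation p = 1, two-sided). With an inverse Simpson index corrected for the number of reads, the values were 2.30 and 24.1 against 14.7 and 17.6 (exact permutation p = 1, two-sided). On both depth-corrected measures wild type 2 stood highest and wild type 1 lowest, with both knockout libraries between them. Both measures also cover all 108 segments, so they do not separate depth from the minimum. The count at equal reads tells how many segments are seen and not how even their use was. For wild type 2 it is the observed count.

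Kappa use was skewed by different segments in different libraries. Igkv8-27 led in wild type 1 with 27.6% of the kappa FPKM and 179 of 728 reads (24.6%, interval 21.5% to 27.9%). Igkv9-120 led in wild type 2 with 11.1% (47 of 415 reads, interval 8.44% to 14.8%). Igkv16-104 led in both knockout libraries, with 13.2% in knockout 1 (101 of 758 reads, interval 11.0% to 16.0%) and 38.7% in knockout 2 (533 of 1382 reads, interval 36.0% to 41.2%). Within each genotype the leading share differed between the libraries by more than these intervals. The effective number of kappa segments was 21.5 and 31.0 in wild type 1 and 2 and 28.3 and 15.1 in knockout 1 and 2 (mean 26.2 ± 6.77 against 21.7 ± 9.31, SD, n = 2 each; exact permutation p = 0.667, two-sided). Wild type 2 was the most even and knockout 2 the least even library. With the inverse Simpson index corrected for the number of reads the order of the libraries was the same, at 13.8 and 30.3 in wild type against 22.6 and 6.37 in knockout (exact permutation p = 0.667, two-sided). At an equal 460 reads per library, 54.8 and 59.0 kappa segments would be seen in wild type against 60.5 and 52.7 in the knockout libraries (exact permutation p = 1, two-sided).

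How many kappa segments held much of the total differed between the libraries. The number that held 50% of the kappa FPKM was 6 and 10 in wild type 1 and 2 and 8 and 3 in knockout 1 and 2, out of 48 members. For 90% of it, 26 and 29 segments were needed in wild type against 29 and 23 in knockout. The Gini index, which is 0 for equal shares, was 0.601, 0.497, 0.545 and 0.691 in wild type 1, wild type 2, knockout 1 and knockout 2 over the 48 kappa members. For the 17 heavy-chain members it was 0.875, 0.539, 0.452 and 0.342 in the same order, so that the library with the most skewed heavy-chain use was wild type 1 and that with the most skewed kappa use was knockout 2.

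**Figure D1:**
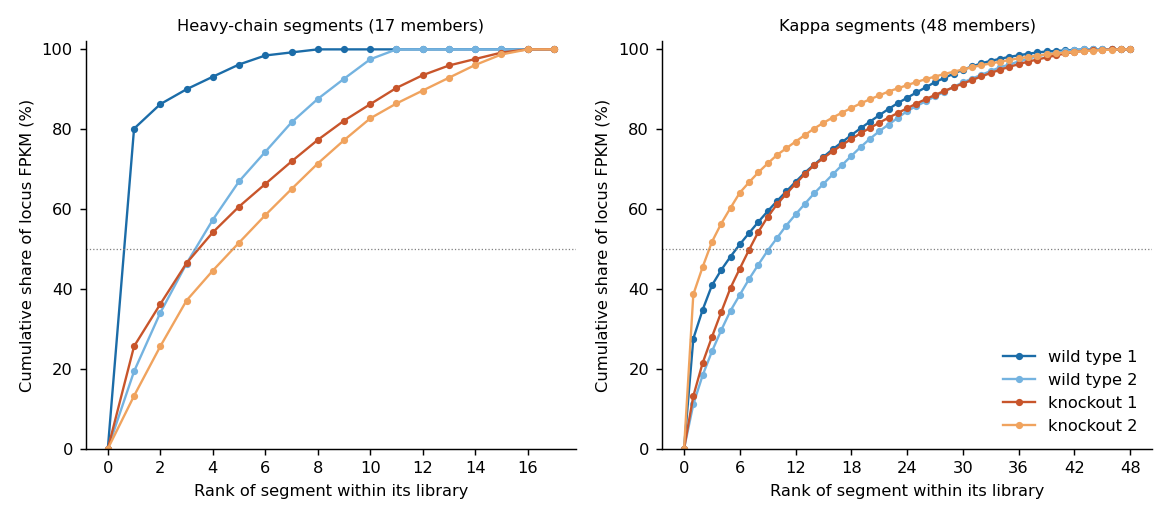
Cumulative share of the locus FPKM (y axis, percent) against the rank of the segment within its library (x axis), for the 17 heavy-chain and the 48 kappa members; each line is 1 library and the dotted line marks 50%. The heavy-chain curve of wild type 1 starts at 80.2%, and the kappa curves of knockout 2 and wild type 1 start at 38.7% and 27.6%.

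Of the 3 lambda segments in the table Iglv1 and Iglv2 were members, and Iglv1 led in every library. Iglv1 was at 7.50 and 5.50 FPKM in wild type 1 and 2 and at 13.9 and 25.8 FPKM in knockout 1 and 2. Iglv2 was at 3.05 and 1.76 FPKM against 4.48 and 6.29 FPKM. For both segments the knockout libraries lay above the wild-type libraries. Iglv1 held 71.1% and 75.8% of the lambda member FPKM in wild type 1 and 2 and 75.7% and 80.4% in knockout 1 and 2, a spread of less than 10 percentage points. The log2 fold changes on the log2(FPKM + 1) scale were 1.43 ± 0.29 (SE) for Iglv1 and 0.92 ± 0.24 for Iglv2 (limma adjusted p = 0.140 and 0.193). Lambda members made up 9.55% and 11.4% of the light-chain variable FPKM in wild type against 13.1% and 12.0% in the knockout libraries.

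Igkv16-104 had the highest mean level of the 67 members. This kappa segment (chromosome 6, 68425575 to 68426072) was at 2.39 and 0.948 FPKM in wild type 1 and 2 and at 16.1 and 90.7 FPKM in knockout 1 and 2. Both knockout libraries were above both wild-type libraries, and knockout 2 was more than 5 times as high as any other library. On the log2(FPKM + 1) scale the fold change was 3.95 ± 0.74 (SE; limma adjusted p = 0.125), and it did not pass the threshold of 0.05. Without wild type 1 or wild type 2 it was not called either (limma adjusted p = 0.168 and 0.232). Without knockout 1 it was 5.16 (limma adjusted p = 0.000357) and without knockout 2 it was 2.74 (limma adjusted p = 0.0111), both called. In each of these fits 1 group is a single library, which is assumed to vary like the other group, so that without a knockout library the wide gap between the knockout values no longer enters the spread. Igkv8-24 was at 2.53 and 1.29 FPKM in wild type against 7.62 and 14.8 FPKM in the knockout libraries, with no overlap of the groups (limma adjusted p = 0.111). It was called without knockout 1 (limma adjusted p = 0.00517), when the spread comes from the wild-type pair, and not without wild type 1, wild type 2 or knockout 2 (0.115, 0.196 and 0.0704).

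Igkv9-120 was the only member called in the main fit. It (chromosome 6, 68049983 to 68050456) was at 7.19 and 6.27 FPKM in wild type 1 and 2, from 55 and 47 reads. In knockout 1 and 2 it was at 1.42 and 1.01 FPKM, from 9 and 6 reads. The wild-type libraries were alike and both above the knockout libraries. The log2 fold change on the log2(FPKM + 1) scale was -1.81 ± 0.16 (SE; limma adjusted p = 0.0302). It was not called without wild type 1 (limma adjusted p = 0.105), without wild type 2 (0.09545), with no filter on low values (0.296) or with limma-voom on whole reads (0.113), and its log2 fold change was negative in each. Its share of kappa FPKM was 7.202% and 11.1% in wild type against 1.16% and 0.429% in the knockout libraries. Igkv9-124, its closest relative shown above, was at 0.483 and 1.48 FPKM against 0.582 and 0.825 FPKM, with overlapping groups.

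Igkv8-27 and Ighv14-1 stood out in 1 wild-type library. Igkv8-27 (chromosome 6, 70171809 to 70172270) was at 27.5 and 4.08 FPKM in wild type 1 and 2 and at 7.42 and 2.76 FPKM in knockout 1 and 2. The groups overlapped, with wild type 2 between the knockout libraries. Ighv14-1 (chromosome 12, 113931953 to 113932382) was at 13.8 and 0.403 FPKM in wild type 1 and 2 and at 1.11 and 1.01 FPKM in knockout 1 and 2, so that wild type 2 was the lowest of the 4. Their log2 fold changes were -1.10 ± 0.79 and -1.15 ± 0.98 (SE; limma adjusted p = 0.552 and 0.615). Without wild type 1 both turned positive, at 0.15 and 0.55, and without wild type 2 Ighv14-1 was called, at -2.85 (limma adjusted p = 0.0186). That call sets wild type 1 alone against the knockout pair, and the gap between the wild-type libraries does not enter its spread.

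The other heavy-chain segments named by rule were lower. Ighv11-2 (chromosome 12, 114048241 to 114048812) was at 0 in both wild-type libraries and at 5.04 and 1.84 FPKM in knockout 1 and 2 (32 and 11 reads). The count of 0 allows up to 2.29% and 7.50% of the heavy-chain reads in wild type 1 and 2. Ighv10-1 was at 0.643 and 0.525 FPKM against 2.01 and 3.63 FPKM. Ighv5-6 was at 0.131 and 0.801 FPKM against 0.946 and 4.19 FPKM. In these 3 segments the knockout libraries lay above the wild-type libraries. Ighv2-9 was at 1.06 and 0.673 FPKM against 1.11 and 2.37 FPKM. Ighv3-8, Ighv8-12, Ighv3-6 and Ighv4-1 had their highest value in knockout 2, between 1.01 and 3.92 FPKM, and Ighv6-3 in wild type 2, at 1.06 FPKM.

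Among the remaining kappa members with high shares, Igkv1-117 was at 2.31 and 2.23 FPKM in wild type 1 and 2 and at 5.89 and 8.90 FPKM in knockout 1 and 2. Igkv10-94 was at 1.33 and 0.407 FPKM against 5.77 and 9.21 FPKM. Igkv8-30 was at 1.01 and 3.36 FPKM against 4.57 and 6.16 FPKM. These 3 segments had higher values in both knockout libraries (limma adjusted p = 0.0978, 0.0876 and 0.258). Igkv6-17 was at 10.7 FPKM in knockout 2 and between 1.12 and 1.77 FPKM in the other libraries, and its log2 fold change of 0.98 became -0.26 without knockout 2. Igkv3-12 was at 3.86 and 2.76 FPKM in wild type against 1.08 and 1.48 FPKM in the knockout libraries (limma adjusted p = 0.155). Igkv8-21 was at 1.91 and 2.99 against 3.07 and 2.29 FPKM, with overlapping groups.

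**Figure D2:**
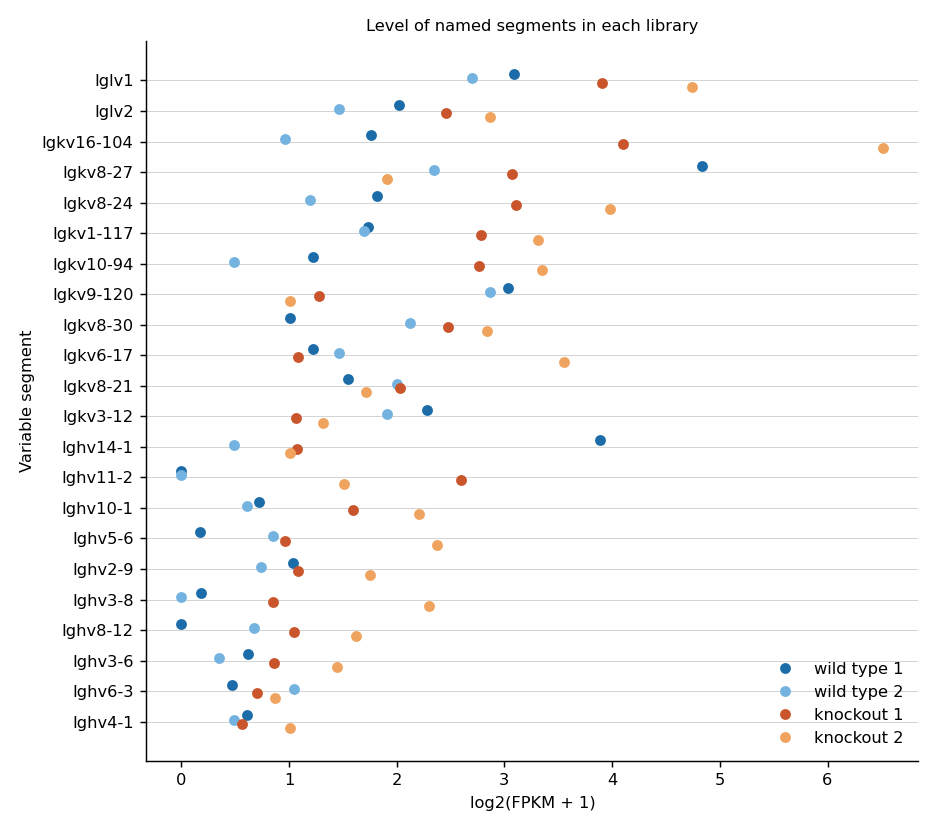
Level of the 22 segments named by rule, as log2(FPKM + 1) on the x axis, with 1 point per library and segments in rows. Igkv16-104 in knockout 2 is the point farthest right (90.7 FPKM), Igkv9-120 has both wild-type points to the right of both knockout points, and Ighv14-1 and Igkv8-27 have wild type 1 apart from the other libraries.

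Segment use was shared to different degrees in the loci. Of the 67 members, 14 reached 1 FPKM in all 4 libraries, 12 of them kappa and 2 lambda; 13 did so in 3 libraries, 17 in 2 and 23 in 1. Among heavy-chain members 0 of 17 reached it in all 4 libraries and 11 in a single library. The 12 kappa segments found in every library carried 54.0% and 55.8% of the kappa FPKM in wild type 1 and 2 and 32.9% and 27.7% in knockout 1 and 2. The kappa member sums were 99.9 and 56.3 FPKM in wild type against 122 and 234 FPKM in knockout. A limit of 1 FPKM is thus a larger share of the sum in wild type, so the choice of these 12 itself favours high wild-type shares. Without wild type 2, the library with the fewest reads in the members, 22 segments reached 1 FPKM in the other libraries. At 0.5 FPKM as the limit 28 segments were present in all 4 libraries and at 2 FPKM 3 were.

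Libraries of the same genotype had more of their kappa FPKM in common than any pair across genotypes. Summing the smaller of the 2 shares over segments, wild type 1 and 2 had 65.4% of their kappa FPKM in common and knockout 1 and 2 had 57.6%. The 4 pairs across genotypes had 33.7% to 50.6% in common. The correlation of log2(FPKM + 1) across the 48 kappa members was 0.71 within wild type and 0.49 within knockout, and 0.05 to 0.18 across genotypes. Of the 10 leading kappa segments per library, wild type 1 and 2 shared 4 (40% of each list) and knockout 1 and 2 shared 6 (60%). Across genotypes 1 to 4 of 10 were shared. For the 17 heavy-chain members the order was another one. Wild type 1 and 2 had 26.4% in common, knockout 1 and 2 had 57.5%, and wild type 2 with knockout 2 had 57.1%. Pairs that included wild type 1 had 23.0% to 26.4% in common, and the others 50.8% to 57.5%. These 6 pairs are descriptions: the members were chosen by their levels in the same libraries, low counts add noise, and segments are not independent.

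Summed over each locus, variable segments were higher in the knockout libraries. Over all segments in the table, with no minimum, the heavy-chain sums were 21.0 (wild type 1), 9.77 (wild type 2), 25.7 (knockout 1) and 37.2 FPKM (knockout 2). In the same order the kappa sums were 107, 62.8, 130 and 242 FPKM. The lambda sums were 11.1, 7.52, 19.2 and 32.4 FPKM. The knockout mean was 2.04, 2.20 and 2.78 times the wild-type mean for heavy, kappa and lambda, and in each locus both knockout libraries lay above both wild-type libraries. The exact two-sided permutation p was 0.333 for each, the smallest this design allows. Among members alone, the kappa sum without Igkv16-104 was 97.5 and 55.4 FPKM in wild type against 106 and 144 FPKM in knockout, so that wild type 1 and knockout 1 were close.

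Constant segments, which the rule did not use, gave part of the same order. Igkc, the kappa constant segment, was at 202 and 125 FPKM in wild type 1 and 2 and at 201 and 332 FPKM in knockout 1 and 2, with wild type 1 and knockout 1 nearly equal. Ighm, the constant segment of IgM, was at 19.0 and 5.70 FPKM against 37.1 and 56.9 FPKM (limma adjusted p = 0.178). Igha, that of IgA, was at 93.0 and 77.8 FPKM against 69.8 and 132 FPKM, with overlapping groups. Iglc2 was the lambda constant segment in the table and was at 2.82 and 4.12 FPKM against 7.25 and 7.23 FPKM. Summed kappa variable members amounted to 49.5% and 44.9% of Igkc in wild type against 60.8% and 70.6% in the knockout libraries. Heavy-chain members amounted to 14.8% and 6.36% of the 7 heavy-chain constant segments in the table against 17.9% and 16.2%. Lambda members amounted to 374% and 176% of Iglc2 against 254% and 444%, with overlapping groups; Iglc2 was the only lambda constant segment analysed here. Of the 14 constant and joining-chain genes listed, 10 were in the table and 7 were tested, with 0 called by limma. At an unadjusted p under 0.05, 4 were higher and 0 lower in knockout, where 8.36% and 7.01% of all tested genes were.

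**Figure D3:**
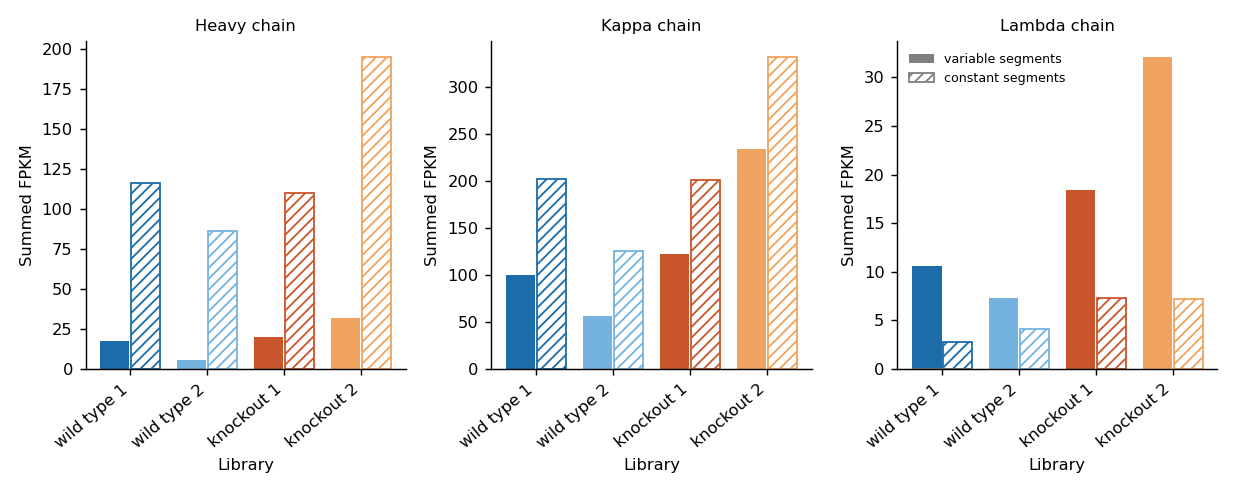
Summed FPKM of the variable members (filled bars) and of the constant segments in the table (hatched bars) of each locus, by library, with y axes starting at 0 and different for each locus. Variable sums were highest in knockout 2 in all 3 loci (31.6, 234 and 32.1 FPKM) and lowest in wild type 2 (5.46, 56.3 and 7.26 FPKM).

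Segment by segment, 44 of the 67 members passed the filter of limma (at least 1 FPKM in 2 or more libraries), and 1 of them, Igkv9-120, was called at an adjusted p under 0.05. Over all 13147 genes tested, 0.114% were called, 0.0761% as higher and 0.038% as lower in knockout. At an unadjusted p under 0.05, 20 members were higher and 6 lower in knockout, where 8.36% and 7.01% of all tested genes were. Both knockout libraries lay above both wild-type libraries for 23 of the 44 and below them for 6, against 22.7% and 25.4% of all tested genes. The median log2 fold change of the 44 was 0.69, against -0.00 over all tested genes. A member could pass the filter through the knockout libraries alone, so these counts lean towards differences and are given as a description. With the replicate number as a block 8 of 44 members were called, as were 69 of 13147 genes. Without knockout 1 it was 11 of 31 members and 252 of 12870 genes, and without knockout 2 it was 2 of 32 members and 55 of 12879 genes. Without wild type 2 it was 1 of 41 members (Ighv14-1) and 11 of 13007 genes, and without wild type 1 it was 0 of 38 members and 10 of 13014 genes. With limma-voom and with no filter 0 members were called, against 8 of 13147 and 1 of 21601 genes.

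The highest value of a member was most often in knockout 2, for 38 of the 67, and in wild type 1, knockout 1 and wild type 2 for 13, 14 and 2. Members were chosen by that highest value, which favours knockout 2, the library with the largest sums. These counts are therefore only a description, and no share over all genes stands beside them. In knockout 2, 9 members were at least 5 times as high as in each other library. Among them were Igkv7-33, at 16.0 FPKM there and between 0.255 and 1.08 FPKM elsewhere, and Igkv8-16, at 5.23 FPKM (32 reads) there and at 0 elsewhere. Such segments numbered 2 in wild type 1 (Ighv14-1 and Igkv15-103), 3 in knockout 1 (Igkv14-126, Igkv4-91 and Ighv12-3) and 0 in wild type 2. These segments were picked after their values were seen.

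Members were spread over the kappa locus and were fewest in the far part of the heavy-chain locus. The kappa segments in the table lie on chromosome 6 between 67555497 and 70704177 in both orientations, and 18 members are on the plus strand and 30 on the minus strand. Counted in 3 parts of equal number from the joining segments, members made up 21 of 35, 9 of 34 and 18 of 34 kappa segments. The far part held 32.8% and 38.8% of the kappa FPKM in wild type 1 and 2 and 52.7% and 56.0% in knockout 1 and 2, and it includes Igkv16-104. The heavy-chain segments lie on chromosome 12 between 113574245 and 116000461, and members were 7, 8 and 2 of 36 in the near, middle and far part. The far part of that locus held 0% and 11.0% of the heavy-chain member FPKM in wild type against 6.20% and 12.9% in the knockout libraries. The Ighv1 family, the largest of the locus with 50 segments in the table, had 4 members. It held 0% and 5.87% of the heavy-chain member FPKM against 16.6% and 18.4%. All members of the far part and of the Ighv1 family reached 1 FPKM only in knockout libraries, so the rule itself favours low wild-type shares here. Among kappa families, Igkv8 had 6 members of 9 segments in the table and took 33.6% and 21.1% of the kappa FPKM against 19.6% and 14.6%.

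**Figure D4:**
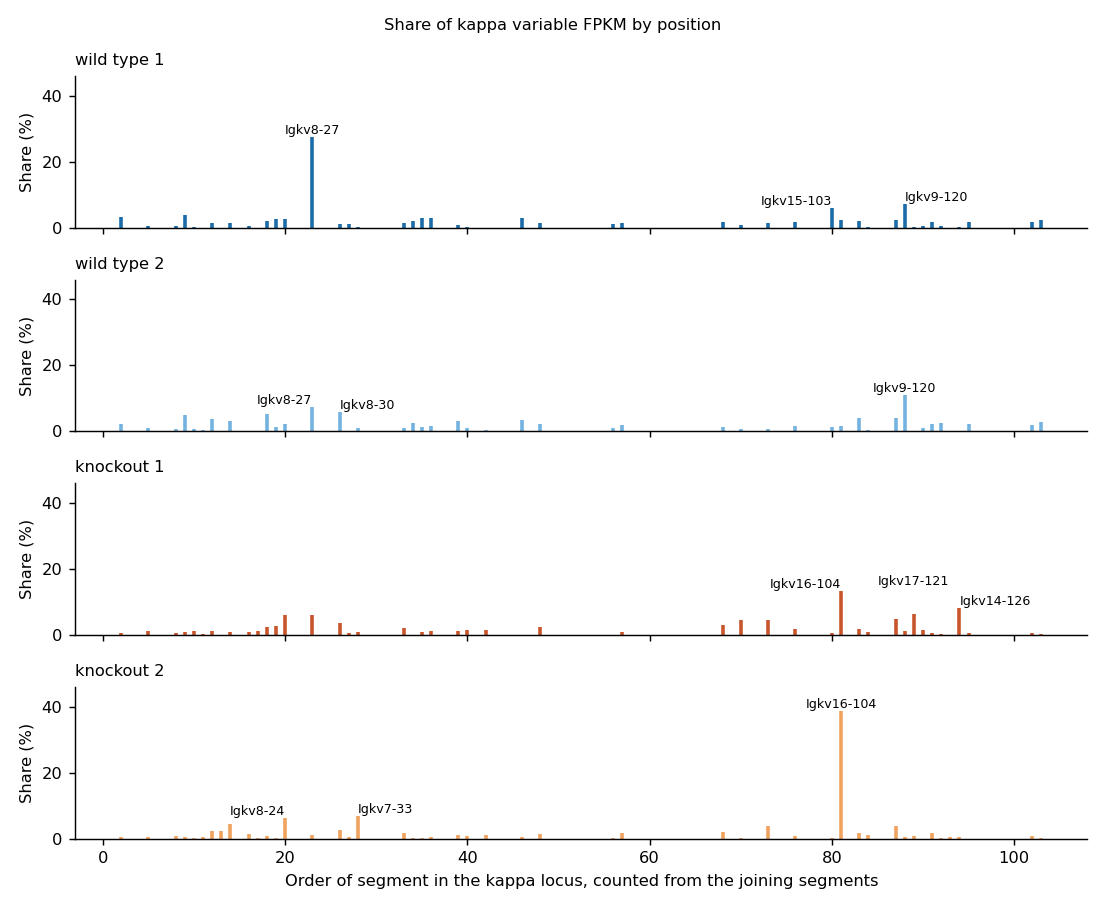
Share of the kappa variable FPKM (y axis, percent) for each kappa member by its order in the locus, counted from the joining segments (x axis), with 1 panel per library; the 3 largest shares are named. Igkv8-27 stands out in wild type 1 (27.6%) and Igkv16-104 in knockout 2 (38.7%), and wild type 2 has no share above 11.1%.

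Genes of the cells that make antibodies were measured beside the segments. Of 12 B cell genes 7 were tested and 0 called by limma. At an unadjusted p under 0.05, 5 were higher and 0 lower, where 8.36% and 7.01% of all tested genes were. In 10 of the 12 the knockout values exceeded both wild-type values, as they did in 22.7% of all tested genes. The 10 include genes too low to be tested, which that share does not cover. The same shares stand beside the lists that follow. Cd79a, a subunit of the B cell receptor, was at 1.55 and 1.68 FPKM in wild type 1 and 2 and at 5.04 and 3.33 FPKM in knockout 1 and 2, and so was higher in knockout 1 than in knockout 2, the reverse of the kappa sum. Cd79b was at 15.9 and 19.0 against 20.3 and 16.3 FPKM, and Cd22 at 10.3 and 9.42 against 12.5 and 8.75 FPKM. For Cd79b and Cd22 the groups overlapped. Of 12 plasma cell genes 9 were tested and 0 called, with 3 higher and 0 lower at an unadjusted p under 0.05. The median log2 fold change of those tested was 0.15. In 6 of the 12 both knockout values exceeded both wild-type values, and in 0 they lay below. The groups overlapped for Sdc1, Prdm1, Irf4, Derl3, Fkbp11 and Txndc5. Fkbp11 was at 25.6 and 34.3 against 29.8 and 26.2 FPKM, and Derl3 at 2.52 and 2.57 against 2.17 and 3.23 FPKM. Jchain, which links secreted IgA and IgM, was at 21.1 and 17.3 against 23.2 and 41.8 FPKM, and Mzb1, a chaperone of plasma cells, at 1.58 and 1.41 against 2.70 and 2.94 FPKM. Sdc1, also made by epithelium, ranged from 576.6 to 643 FPKM, and Tnfrsf17, a receptor of plasma cells, was at 0 in both wild-type libraries and at 0.068 and 0.073 FPKM in the knockout libraries.

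Pigr, which carries IgA and IgM across epithelium, was at 13.4 and 11.9 FPKM in wild type 1 and 2 and at 22.8 and 185 FPKM in knockout 1 and 2, highest in the library with the highest variable sums. Of 6 genes of immunoglobulin transport and receptors, all tested, 0 were called and 2 were higher and 0 lower at an unadjusted p under 0.05. Rag2 and Vpreb2 were at 0 in all libraries and Rag1 in 3 of 4; of 7 genes of recombination and the surrogate light chain 1 was tested and 0 were called. Of 7 germinal centre genes 5 were tested and 0 called, with 1 higher and 1 lower at an unadjusted p under 0.05.

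Markers of other cells were measured in the same libraries. For all 9 T cell genes the knockout values exceeded both wild-type values, with a summed level of 14.5 and 14.6 FPKM in wild type and 35.1 and 40.6 FPKM in knockout; 8 were tested, 0 called and 8 higher at an unadjusted p under 0.05. The 4 neutrophil genes summed to 22.3 and 25.0 FPKM against 89.5 and 90.8 FPKM, with 3 called. The 4 haemoglobin genes summed to 244 and 486 FPKM against 1186 and 1084 FPKM, with 0 called and 4 higher at an unadjusted p under 0.05. Of the 5 epithelial genes 0 were called and 0 had an unadjusted p under 0.05. Over all tested genes 0.114% were called and 8.36% were higher at an unadjusted p under 0.05. In 22.7% of them both knockout values exceeded both wild-type values. The part of these markers in the segment levels was not tested. Among 131 T cell receptor variable segments in the table, 5 reached 1 FPKM in any library, and the sums over all 131 were 5.32 and 4.43 FPKM in wild type against 9.93 and 10.7 FPKM in knockout.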

How the data were processed

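RNA sequencing of 4 lung tumour libraries was analysed from the deposited table of FPKM, 1 column per library. TopHat2, DESeq2 and the build mm10 appear in the submitters' processing notes, which give neither roles nor versions; how reads were counted, on which annotation and whether by strand is not given there. That the authors' values are FPKM was read from the values: for 5488 of 21601 genes above 0, and 63 of 121 variable segments, an annotated length gives whole reads in all 4 libraries within 0.0002. For the other genes the smallest length that does so was taken, which is a free fit and no check of the unit, and their read counts would be larger at a longer length. The lengths used for members were 287 to 365 bases. Gene identifiers were matched to GENCODE symbols for GRCm38, the same assembly as mm10 (34490 of 35275 matched). Sequences are GENCODE transcripts, since the RefSeq promoter table held none of these segments.

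Shares, entropy, Gini and overlap were computed per locus and library in Python 3.11.15; identities come from local alignments in Biopython 1.88 (at least 250 aligned columns). The comparison of genotypes used limma 3.58.1 (R 4.3.3) with its intensity trend; log2(FPKM + 1) values were fitted for 13147 genes with at least 1 FPKM in 2 or more libraries, with Benjamini-Hochberg adjustment over all of them; fold changes on this scale understate changes of low genes. The script was tested on simulated data. Single values were compared by exact permutation over libraries.

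Named by rule were the 10 heavy-chain and 10 kappa members with the highest mean share, lambda members, leaders of each library, called members, and members of at least 5 FPKM with the largest differences. Members and lists were chosen with earlier results of these data known. Alternatives were other scaling, filters, pseudocounts, a replicate block, left-out libraries and other measures of evenness. A crossed block and a depth-corrected index were added after seeing the data. Counts of segments at equal reads were not planned either, and shared leading segments were taken from a shorter list (10) than planned.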

Additional observations from a re-analysis of the deposited data

How the results depend on the processing

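The 1 member called became 0 with no filter on low values, 0 with limma-voom on whole reads and 4 at an adjusted p under 0.1 (0.494% of all tested genes), and ranged from 0 to 11 with each library left out. The same replicate numbers in both genotypes carry no stated pairing, and with the replicate block 8 members were called. Deviations of same-numbered libraries correlated at -0.31 across genes, and with the crossed pairing, added after seeing the data, 22 members and 848 of 13147 genes were called, against 15 genes without a block. With 2 libraries per group and few reads per segment, the calls moved with single libraries. Mean effective numbers of heavy-chain segments were 5.99 in wild type and 12.7 in knockout. With no minimum they were 13.5 and 20.5, and by the depth-corrected inverse Simpson index 13.2 and 16.1, with wild type 2 the highest library in both. They were 1 and 1.76 over segments of at least 5 FPKM and 5.10 and 10.5 by the plain inverse Simpson index. Mean effective numbers of kappa segments, 26.2 and 21.7, were 7.205 and 8.28 over segments of at least 5 FPKM; they were 33.1 and 26.1 with no minimum and 17.01 and 12.8 by the inverse Simpson index. Segments present in every library, 14 in all, were 28 at 0.5 FPKM, 3 at 2 FPKM and 14 to 22 with a library left out. Log2 fold changes changed sign with a library left out for Ighv14-1 (-2.85 to 0.55), Igkv8-27 (-2.34 to 0.15), Igkv6-17 (-0.26 to 2.21) and Igkv8-21 (-0.13 to 0.33, also -0.05 without knockout 1). The cause was not tested.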

Other observations

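The heavy-chain segments Ighv11-2 and Ighv12-3 and the kappa segments Igkv14-126 and Igkv4-91 are known, as background, for recurrent pairs in mouse B-1a cells that bind phosphatidylcholine, Ighv11-2 with Igkv14-126 and Ighv12-3 with Igkv4-91. All 4 were highest in knockout 1, and they were picked after their values were seen. Igkv14-126 was at 0.131 and 0 FPKM in wild type 1 and 2 and at 10.1 and 1.01 FPKM in knockout 1 and 2, from 1, 0, 64 and 6 reads. Ighv11-2 followed the same order, at 0 and 0 FPKM against 5.04 and 1.84 FPKM. Ighv12-3 was at 0 and 0.135 FPKM in wild type against 2.08 and 0 FPKM in knockout, from 0, 1, 13 and 0 reads. Igkv4-91 was at 0.803 and 0.410 FPKM against 5.48 and 0.686 FPKM, from 6, 3, 34 and 4 reads. Ighv11-2 shares 98.9% of its bases with Ighv11-1, so that reads of both may be mixed, whereas Ighv12-3 is at most 79.4% identical to any other heavy-chain segment. The table cannot show whether these chains were joined in the same cells, and the cells they came from were not tested. In knockout 2, Ighv11-2 and Igkv14-126 also lay above both wild-type libraries, from 11 and 6 reads, while Ighv12-3 and Igkv4-91 did not. That all 4 were high together thus rests on knockout 1 alone and has no replicate check.

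Igkv17-121 had a like order, at 0.132 and 0 FPKM in wild type 1 and 2 and at 7.95 and 1.86 FPKM in the knockout pair (limma adjusted p = 0.162). Igkv15-103 was at 6.12 FPKM in wild type 1 and between 0.512 and 0.962 FPKM in the other libraries, and so was high in the library in which Igkv8-27 and Ighv14-1 led. Ighg3, the constant segment of IgG3, was at 0.093 and 0.190 FPKM in wild type 1 and 2 and at 1.23 and 2.39 FPKM in the knockout pair (limma adjusted p = 0.134), while Ighg2b was at 3.57 and 1.49 against 0.771 and 1.93 FPKM, with overlapping groups.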
